A study of Mus musculus with 12 samples.

Results

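BM-DCs that received both oligomeric Aβ1-42 and LPS (“Aβ+LPS”) were set against untreated BM-DCs (“Ctrl”). The comparison takes 6 of the 12 RNAseq libraries of the study, 3 Aβ+LPS and 3 Ctrl, chosen by their treatment labels alone. BM-DCs are dendritic cells grown from bone marrow, here of 12 week old C57BL/6 wild type mice, in medium with GM-CSF. Aβ+LPS cells were exposed to oligomeric Aβ1-42 at 0.5 μM over 4 days and to LPS at 100 ng/ml over 18 h, whereas Ctrl cells were given neither. In the paper's scheme the oligomers were begun the day before LPS, so the time from LPS to harvest need not be 18 h. Aβ cells had the oligomers alone and LPS cells had LPS alone, with 3 libraries each, and these enter only where named. The mice carried no amyloid transgene, and no library with a scrambled peptide was analysed here, so the comparison is of oligomers plus LPS with no addition. Nothing in the labels says that the 3 libraries of a group came from separate animals, so all p-values measure the spread between these libraries, which may be technical.

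Dendritic cells patrol tissues, take up antigen and carry it to T cells. LPS, a component of the bacterial outer membrane, binds CD14 and is sensed by Toll-like receptor 4, which starts NF-kB and interferon signalling. The cell then matures: it makes cytokines, shows MHC molecules with co-stimulatory ligands, gains the lymph node homing receptor CCR7 and gives up much of its uptake machinery. Amyloid-β oligomers, the soluble aggregates that build up in Alzheimer's disease, are bound by several scavenger and pattern receptors of myeloid cells. GM-CSF cultures of bone marrow hold macrophage-type cells beside dendritic cells, and the RNA of a culture is the sum of both.

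Reads in genes came to 25895243 to 29690965 per Aβ+LPS library and 24129681 to 27209584 per Ctrl library. Aβ+LPS libraries had a read in 19057 to 19574 genes, and Ctrl libraries in 18403 to 18682. Within a group every pair of libraries had a correlation of log2 values of at least 0.9904, and the median SD of a gene over replicates was 0.0869 (log2) in Aβ+LPS and 0.0902 in Ctrl. All 12 libraries had distinct values. Levels are given as normalised counts, that is, reads divided by a size factor of the library, and log2(fc) is the difference of the mean log2(normalised count + 1) of Aβ+LPS minus that of Ctrl. The values adjp are p-values of limma adjusted over all genes tested by the method of Benjamini and Hochberg, and values with ± are means with SD over n = 3 libraries.

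Of 53465 genes listed, 26760 had a read and 14070 passed the filter, an average of 10 or more in Aβ+LPS or in Ctrl. At adjp under 0.05, 9951 genes (70.7%) differed between Aβ+LPS and Ctrl, 5051 higher (35.9%) and 4900 lower (34.8%) in Aβ+LPS. A log2(fc) beyond 1 was seen in 1876 higher genes (13.3%) and 1531 lower genes (10.9%). The libraries of the groups did not overlap for 10375 genes (73.7%). The median log2(fc) of all genes was 0.02. With a share of 70.7% called, a passed test alone set no gene apart, so sizes of change and direction counts are given beside these shares.

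**Figure D1:**
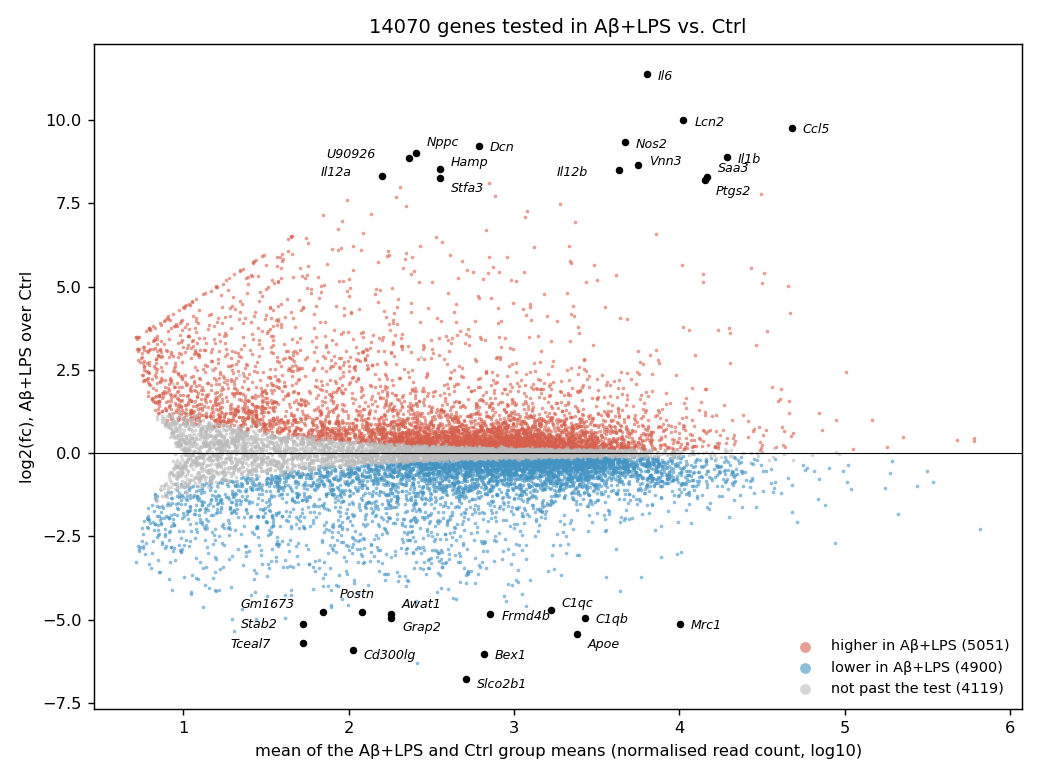
log2(fc) of Aβ+LPS vs. Ctrl (vertical axis) against the mean level of the 2 groups (horizontal axis, log10 of normalised counts) for the 14070 genes tested, each point a gene. Red points are the 5051 genes higher in Aβ+LPS, blue points the 4900 lower and grey points the 4119 that did not pass. Il6 stands at the top at 11.37 and Slco2b1 near the bottom at -6.76.

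Among genes that averaged 100 or more in the higher group, the highest log2(fc) included those of several cytokine genes. Il6 (chr5:30013114-30019981), the cytokine that drives the acute-phase response, had 11491, 13226 and 13396 normalised counts in the Aβ+LPS libraries, against 5.07, 3.43 and 3.07 in the Ctrl libraries. All Aβ+LPS libraries lay orders of magnitude above all Ctrl libraries (log2(fc) 11.37, SE 0.10, adjp = 5.8e-27). Lcn2 (chr2:32384633-32388252), which encodes the iron-siderophore binding lipocalin 2, had 20262, 20268 and 22937 in Aβ+LPS and 22.3, 8.01 and 41.9 in Ctrl. Its Ctrl libraries were unequal, but none came near the Aβ+LPS libraries (log2(fc) 9.99, SE 0.29, adjp = 5.7e-18). Ccl5 (chr11:83525778-83530518), a chemokine for T cells and monocytes, had 94041, 93144 and 100705 in Aβ+LPS and 106, 105 and 119 in Ctrl, with a tight spread in both groups (log2(fc) 9.76, SE 0.05, adjp = 5.5e-31). Nos2 (chr11:78920787-78960254), the inducible nitric oxide synthase, had 8861, 9120.4 and 10043 in Aβ+LPS against 13.2, 18.3 and 10.2 in Ctrl (log2(fc) 9.33, SE 0.12, adjp = 3.1e-24). The stromal proteoglycan gene Dcn followed with 1228 ± 109 in Aβ+LPS and 1.06 ± 0.0723 in Ctrl (log2(fc) 9.22). The others among the 15 highest were Nppc, Il1b, U90926, Vnn3, Hamp, Il12b, Il12a, Saa3, Stfa3 and Ptgs2, with log2(fc) from 8.18 for Ptgs2 to 9.00 for Nppc. Stfa3 is one of several near-identical stefin genes, so its own count is uncertain.

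Some of these genes had no read in any Ctrl library, so a fold could be given only as a bound against 3 reads over the group. Nppc, which encodes the C-type natriuretic peptide, was at least 484-fold higher in Aβ+LPS, with 541, 465 and 526 normalised counts. U90926 was at least 442-fold higher. Il12a, the p35 subunit that IL-12 needs, was at least 303-fold higher (286, 322 and 353 in Aβ+LPS). For Csf3, the granulocyte growth factor G-CSF, the bound was 184.5-fold (166, 213 and 206). The potassium channel gene Kcnf1 was at least 132-fold and the serotonin receptor gene Htr7 at least 85.4-fold higher. In all, 67 genes that averaged 10 or more in Aβ+LPS had no read in Ctrl, 5 of them at an average of 100 or more. In the other direction 4 genes had no read in Aβ+LPS. One was Cd209a, the mouse gene closest to the human dendritic cell lectin DC-SIGN, with 49.7, 42.3 and 29.7 in Ctrl and at least 43.4-fold lower in Aβ+LPS.

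Slco2b1 (chr7:99657804-99711340), an organic anion transporter with the lowest log2(fc), had 12.1, 11.2 and 4.08 normalised counts in Aβ+LPS, against 1014, 989 and 1038 in Ctrl (log2(fc) -6.76, SE 0.26, adjp = 7.9e-16). Apoe (chr7:19696109-19699188), the lipid carrier whose human ε4 allele is the main genetic risk for late-onset Alzheimer's disease, had 111, 111 and 101 in Aβ+LPS and 4471, 4623 and 4918 in Ctrl (log2(fc) -5.43, SE 0.08, adjp = 9.1e-23). Every Ctrl library thus held over 40 times the Apoe level of any Aβ+LPS library. Mrc1 (chr2:14229392-14332057), the mannose receptor for endocytosis of glycoproteins, had 562, 558 and 563 in Aβ+LPS and 20032, 18279.9 and 20238 in Ctrl (log2(fc) -5.12, SE 0.06, adjp = 1.7e-24). Others among the 15 lowest were Bex1 (-6.02), Cd300lg (-5.91), Tceal7 (-5.70), Stab2 (-5.13), Grap2 (-4.95), C1qb (-4.94), Frmd4b (-4.83), Awat1 (-4.81), Postn (-4.77), Gm1673 (-4.77) and C1qc (-4.72). In bulk RNA, fewer cells of a type and less RNA per cell cannot be told apart.

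**Figure D2:**
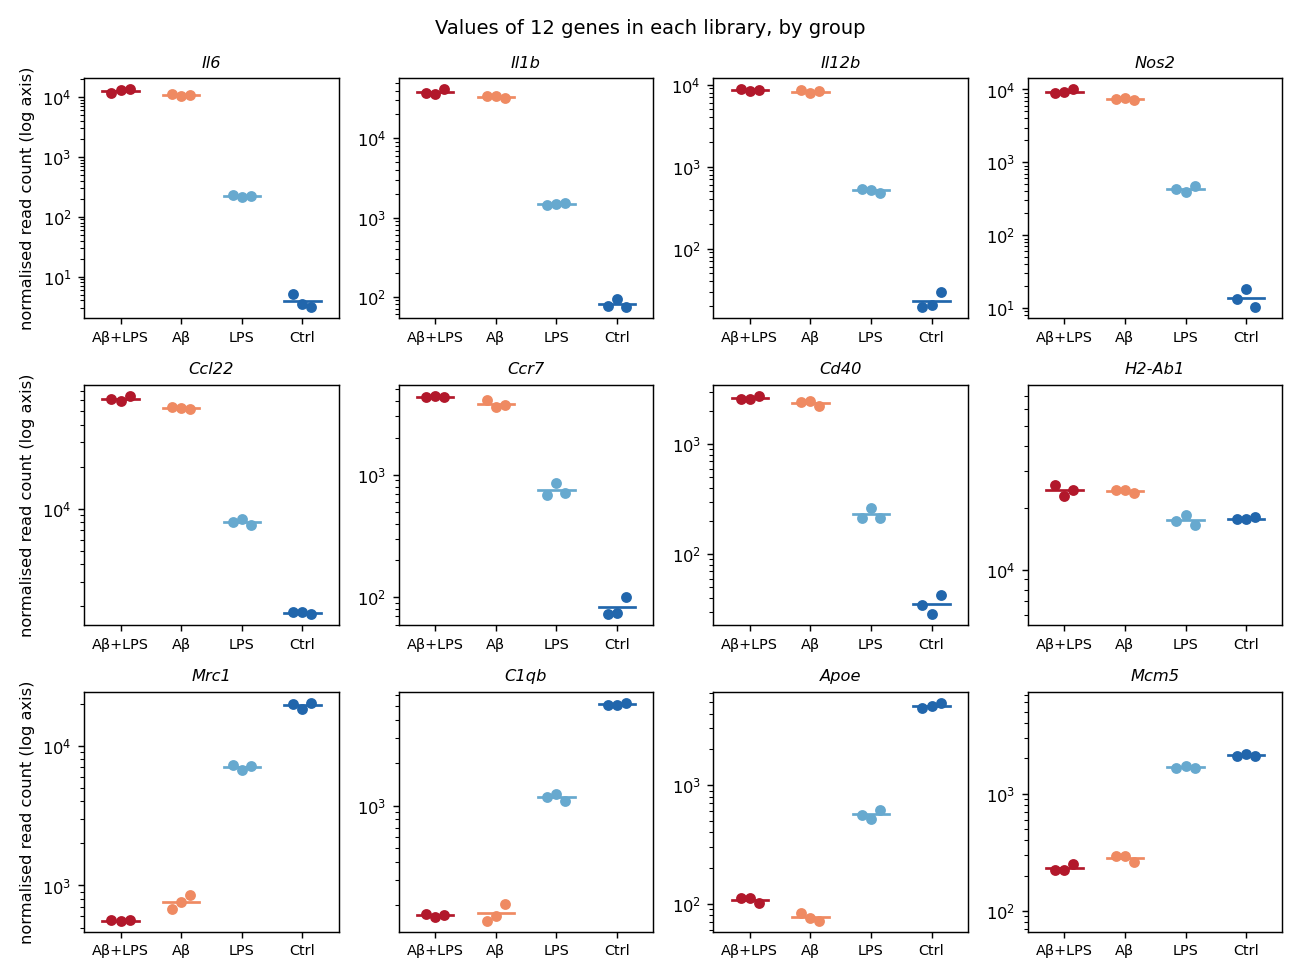
Normalised counts per library (log axis) of 12 genes in Aβ+LPS, Aβ, LPS and Ctrl, from left to right. Each point is a library and each line a group mean. Il6, Il1b, Il12b, Nos2, Ccl22, Ccr7 and Cd40 sat higher in all 3 Aβ+LPS libraries than in any Ctrl library, Mrc1, C1qb, Apoe and Mcm5 sat lower, and H2-Ab1 moved by a log2(fc) of only 0.45.

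Pro-inflammatory cytokine genes rose almost throughout. Of 20 tested, 18 were higher in Aβ+LPS and 2 lower, with a median log2(fc) of 2.99, where all genes had 35.9% higher, 34.8% lower and a median of 0.02. Il1b, whose product is released as IL-1β after cleavage by the inflammasome, had 37536, 36601 and 41393 normalised counts in Aβ+LPS and 77, 92.6 and 73.6 in Ctrl (log2(fc) 8.88, SE 0.06, adjp = 1.3e-28). Il12b, the p40 subunit shared by IL-12 and IL-23, had 8772, 8284 and 8599 in Aβ+LPS and 19.3, 20.6 and 29.7 in Ctrl (log2(fc) 8.49, SE 0.10, adjp = 6.3e-25). Its IL-23 partner subunit Il23a reached only 23.4 ± 12.6 in Aβ+LPS and 0.677 ± 1.17 in Ctrl (log2(fc) 3.96). Tnf, an early NF-kB target, had 3437, 3547 and 3616 in Aβ+LPS against 619, 645 and 627 in Ctrl (log2(fc) 2.48, SE 0.05, adjp = 3.1e-20). The 3 Tnf values of each group lay close together and the groups were far apart, although the step was much smaller than that of Il6. Inhba, the activin A subunit, held the highest normalised counts of the list, at 87867 ± 1751 in Aβ+LPS and 2696 ± 176 in Ctrl (log2(fc) 5.03, adjp = 3.6e-21). Il1a (5.38), Lif (4.54), Csf2 (3.42), Il33 (2.54), Ebi3 (2.39), Il27 (1.77) and Osm (1.39) rose as well. Csf1, the macrophage growth factor, rose by a log2(fc) of only 0.13, a call lost without Aβ+LPS library 1 (adjp = 0.072). The 2 that fell were Il15, which sustains T and NK cells, with 165 ± 24.7 in Aβ+LPS and 330.0 ± 18.5 in Ctrl (adjp = 2.5e-08), and Il18, with 81.8 ± 14.7 in Aβ+LPS and 186 ± 13.7 in Ctrl (log2(fc) -1.19, adjp = 1.1e-06). Ifnb1 and Il36g did not pass the filter.

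Genes for anti-inflammatory cytokines and decoys were split, with 6 higher and 2 lower of 9 tested and a median of 0.40. Il10 stood at 30.3 ± 7.27 normalised counts in Aβ+LPS and 7.03 ± 2.01 in Ctrl (log2(fc) 1.96, adjp = 0.00053), a low level beside Il12b. Tgfb2 rose most (133 ± 13.5 in Aβ+LPS, 3.90 ± 1.64 in Ctrl, log2(fc) 4.83) and Tgfb1 rose by 0.64. Il1rn, the IL-1 receptor antagonist, was high in both groups, with 40783 ± 1259.8 in Aβ+LPS and 35987 ± 763 in Ctrl, and rose by a log2(fc) of 0.18. The stress cytokine gene Gdf15 fell (log2(fc) -1.52, adjp = 6.4e-12). Among 34 cytokine receptor genes 20 were higher and 12 lower (median 0.40). Il2ra, the IL-2 receptor α chain CD25, had 1750.3, 1783 and 1843 in Aβ+LPS and 29.4, 21.7 and 39.9 in Ctrl (log2(fc) 5.88, SE 0.14, adjp = 9.3e-20). No Ctrl library came near any Aβ+LPS library. Flt3, the receptor for the dendritic cell growth factor FLT3L, had 98.3 ± 9.30 in Aβ+LPS and 5.09 ± 4.07 in Ctrl (log2(fc) 4.31), and Kit, the stem cell factor receptor, had 330.2 ± 36 in Aβ+LPS and 25.6 ± 8.13 in Ctrl (log2(fc) 3.69). Of the chains of the GM-CSF receptor, the shared β chain genes rose (Csf2rb 1.20, Csf2rb2 0.74) and the α chain gene Csf2ra fell (-0.74). Both receptor genes for IL-18 fell (Il18r1 -1.83, Il18rap -1.56). The receptors for interferon-γ, TGF-β and IL-6 were split by chain. Ifngr1 (-1.16), Tgfbr2 (-1.16) and Il6ra (-0.97) fell, while their partner chain genes Ifngr2, Tgfbr1 and Il6st rose. Per kb of exon, Ifngr2 had 916 normalised counts in Aβ+LPS and 693 in Ctrl, Tgfbr1 2127 and 1620, and Il6st 254 and 219. Il12rb1 rose (3.39) while Il12rb2, the other chain of the IL-12 receptor, fell (-1.78).

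Chemokine genes went both ways. Of 22 tested, 15 rose and 7 fell (median log2(fc) 1.91). The neutrophil attractants Cxcl1 (7.47), Cxcl3 (6.56) and Cxcl2 (5.63) rose, Cxcl2 with 19376, 20284 and 21022 normalised counts in Aβ+LPS and 395, 396 and 428 in Ctrl. Ccl22 (chr8:94745590-94751699), which binds CCR4 on regulatory and other T cells, had 61010.4, 59427 and 64216 in Aβ+LPS and 1817, 1836 and 1759 in Ctrl (log2(fc) 5.09, SE 0.04, adjp = 1.9e-27). The other CCR4 ligand, Ccl17, rose too (log2(fc) 3.38, adjp = 1.1e-20). Cxcl16 (3.79), Cx3cl1 (3.99), Ccl3 (1.94), Ccl4 (0.61) and the interferon-inducible Cxcl10 (2.15) were higher in Aβ+LPS. The genes for the CCR2 ligands fell: Ccl2 had 1350.3, 1372 and 1573 in Aβ+LPS and 5588, 5291 and 6020.3 in Ctrl (log2(fc) -1.98, SE 0.06, adjp = 4.2e-17), Ccl7 had a log2(fc) of -2.36 and Ccl12 of -3.68. The other genes that fell were Ccl6, at 23358 ± 628 in Aβ+LPS and 152012 ± 7869 in Ctrl (-2.70), Ppbp (-3.54), Cxcl14 (-0.69) and Pf4 (-0.24). Ccl8, Ccl11, Ccl20, Ccl24, Cxcl9, Cxcl11, Cxcl12 and Xcl1 did not pass the filter.

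Among receptors for chemoattractants 12 of 21 rose and 8 fell (median 0.47). Ccr7 (chr11:99144196-99155077), the receptor that guides mature dendritic cells to lymph nodes, had 4317, 4394 and 4293 normalised counts in Aβ+LPS and 73, 74.3 and 101 in Ctrl (log2(fc) 5.71, SE 0.10, adjp = 4.1e-22). The groups were apart by more than 40-fold in every pair of libraries. Fpr1 and Fpr2, receptors for formylated bacterial peptides of which FPR2 also binds Aβ, had log2(fc) of 4.80 and 4.39, Fpr2 with 2378 ± 144 in Aβ+LPS and 113 ± 11.2 in Ctrl. Ccr2, the receptor for CCL2 that marks inflammatory monocytes, fell to 197 ± 21.2 in Aβ+LPS, against 1523 ± 119.7 in Ctrl (log2(fc) -2.95, adjp = 1.2e-15). The complement peptide receptors C3ar1 (-1.11), C5ar1 (-0.72) and C5ar2 (-2.19) fell as well, while Ccr1 (1.15) and Cx3cr1 (1.61) rose.

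Of 34 genes for Toll-like and other pattern receptors and their adaptors, 19 rose and 10 fell (median 0.44). Clec4e, the Mincle receptor for mycobacterial glycolipid, rose most, with 52885 ± 846 normalised counts in Aβ+LPS and 1112 ± 29.4 in Ctrl (log2(fc) 5.57). Cd14, the LPS co-receptor, had 63676, 60173 and 64538 in Aβ+LPS and 4679, 5298 and 4948 in Ctrl (log2(fc) 3.66, SE 0.05, adjp = 3.5e-24). All 3 Aβ+LPS libraries were above all Ctrl libraries by about an order of magnitude. Tlr2 (2.05), the inflammasome sensor Nlrp3 (1.69) and the negative regulator Irak3 (2.62) rose. The endosomal receptors for RNA Tlr8 (-1.85) and Tlr13 (-0.72) fell, and Tlr7 had 4177 ± 276 in Aβ+LPS and 4214 ± 210.2 in Ctrl (adjp = 0.82).

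The NF-kB pathway and its feedback genes moved one way. Of 30 tested, 27 rose, 2 fell and 1 did not pass, with a median log2(fc) of 1.06. Traf1 (5.14) and Birc3 (2.17), partners in TNF receptor signalling, rose together with brakes on the pathway, the ubiquitin editor Tnfaip3 (2.37), the ribonuclease Zc3h12a (2.59) and the inhibitor Nfkbia. Nfkbia, which encodes IκBα, had 5907, 5809.7 and 6016 normalised counts in Aβ+LPS and 1311, 1454 and 1292 in Ctrl (log2(fc) 2.13, SE 0.05, adjp = 6.9e-20). The 2 that fell were Zfp36, an mRNA decay factor (-0.44), and Tnip3 (-0.31), and Otulin did not differ past the test (adjp = 0.61). The 250 bases before the start of each gene in RefSeq annotation of GRCm38.p6 were searched on both strands for a kB-like motif, GGGANTTNC. It was found before 10 of 25 list genes matched (40%), against 4.86% of 10298 tested genes and 3.54% of all 32851 promoters of the annotation. A match is a description of the sequence and not a measured site. The parts before the start that hold it are given for Il6, the gene with the highest log2(fc), and for 2 list members. These are Nfkbia and Nfkb2, both chosen after the values were seen. The motif is in capitals, on the coding strand in Il6, on the other strand in Nfkbia and as overlapping matches on both strands in Nfkb2:
Il6 (chr5:30013015-30013113, plus strand): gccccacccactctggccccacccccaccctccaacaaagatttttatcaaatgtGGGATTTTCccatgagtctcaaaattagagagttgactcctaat
Nfkbia (chr12:55492648-55492730, minus strand): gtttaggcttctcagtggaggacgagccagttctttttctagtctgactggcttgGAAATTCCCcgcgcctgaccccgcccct
Nfkb2 (chr19:46304644-46304736, plus strand): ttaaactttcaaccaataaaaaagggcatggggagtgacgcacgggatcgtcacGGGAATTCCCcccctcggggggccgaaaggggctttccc
Nfkb2, the p100 precursor of the NF-kB subunit p52, had 4098, 4109.5 and 4089.6 in Aβ+LPS and 1019, 1106 and 1012 in Ctrl (log2(fc) 1.97, adjp = 7.5e-20), so all 3 genes were higher in Aβ+LPS.

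Interferon-stimulated genes did not share a direction, with 21 of 40 higher, 12 lower and 7 not past the test (median log2(fc) 0.37). The guanylate binding proteins, GTPases that act on intracellular microbes, rose: Gbp5 had 2081, 2265 and 2335 normalised counts in Aβ+LPS and 118, 114 and 147 in Ctrl (log2(fc) 4.14, SE 0.09, adjp = 1.5e-20), Gbp2 a log2(fc) of 2.73 and Gbp3 of 1.79. Their libraries did not overlap between the groups. Genes of the 2′-5′ oligoadenylate synthase family, which sense viral double-stranded RNA, split. Oasl1, an inhibitor of IRF7 translation, rose (3.18), and Oas2 (-1.21) and Oas3 fell. Oas3 had 978, 985 and 1061 in Aβ+LPS and 2140.4, 1655 and 2019 in Ctrl (log2(fc) -0.93, SE 0.09, adjp = 2.8e-09). Irf7, the master regulator of type I interferon, had 1384, 1351 and 1683 in Aβ+LPS and 526, 356 and 683 in Ctrl (log2(fc) 1.54, SE 0.15, adjp = 4.5e-09). Ctrl library 2 was the lowest and Ctrl library 3 the highest of its group for Irf7, and still no Ctrl library reached an Aβ+LPS library. Mx1 (-0.51) and Rtp4 (-0.84), both antiviral effectors, fell. Of 8 interferon regulatory factor genes, 4 rose, namely Irf4 (1.91), Irf7 (1.54), Irf8 (0.43) and Irf1 (0.32), and Irf2 fell (-0.23). The motif GAAANNGAA, part of the interferon-stimulated response element (ISRE) that interferon-activated factors bind, was searched in the same way and found before 18 of 32 genes of the interferon-stimulated list (56.2%), against 7.89% of tested genes and 7.13% of all promoters. The parts before the start that hold it are shown for Oas3, lower in Aβ+LPS than in Ctrl, and for Isg15 and Rsad2, picked after the values were seen, with the motif in capitals. It lies on the coding strand in Oas3, where 2 matches overlap, and in Isg15, where 3 overlap, and on the other strand in Rsad2:
Oas3 (chr5:120777665-120777783, minus strand): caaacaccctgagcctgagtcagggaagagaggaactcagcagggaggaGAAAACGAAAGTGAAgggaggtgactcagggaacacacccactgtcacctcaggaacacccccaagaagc
Isg15 (chr4:156200821-156200939, minus strand): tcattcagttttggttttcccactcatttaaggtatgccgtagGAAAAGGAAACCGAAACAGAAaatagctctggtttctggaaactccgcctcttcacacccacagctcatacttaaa
Rsad2 (chr12:26456508-26456626, minus strand): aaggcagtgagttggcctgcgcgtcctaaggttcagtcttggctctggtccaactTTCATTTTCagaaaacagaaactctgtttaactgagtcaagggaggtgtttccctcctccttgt
The ubiquitin-like modifier gene Isg15 had 1878, 2039.7 and 2241 in Aβ+LPS and 563, 383 and 704 in Ctrl (log2(fc) 1.94, adjp = 2.7e-11), and Rsad2, the antiviral enzyme viperin, had 2785, 2788 and 2554 in Aβ+LPS and 1821, 1267 and 2280.5 in Ctrl (log2(fc) 0.64, adjp = 0.00014). So the 3 genes with this element before their start differed in the size and sign of their log2(fc).

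Genes of MHC class II presentation changed little at the level of the classical chains. Of 21 tested, 12 rose, 7 fell and 2 did not pass (median 0.17). Ciita (chr16:10480059-10528418), the transactivator of these genes, had 905, 827 and 876 normalised counts in Aβ+LPS and 551, 539 and 566 in Ctrl (log2(fc) 0.65, SE 0.07, adjp = 4.8e-08). H2-Ab1 (chr17:34257689-34269419), the I-A β chain, had 25662, 22766 and 24358 in Aβ+LPS and 17518, 17520.5 and 18017 in Ctrl (log2(fc) 0.45, SE 0.05, adjp = 1.8e-08). For both genes the lowest Aβ+LPS library was above the highest Ctrl library. H2-Eb1 rose by 0.17 and H2-Aa by 0.17 (log2), with levels of 32897 ± 1292 in Aβ+LPS and 29332 ± 891 in Ctrl for H2-Aa. Cd74, the invariant chain, had 43791, 39485 and 44980.4 in Aβ+LPS and 42750.2, 44527 and 42790.3 in Ctrl and did not pass (log2(fc) -0.02, SE 0.07, adjp = 0.79). The H2-O chains, which restrain peptide loading, rose more, H2-Oa by 2.67 and H2-Ob by 2.33. The chains of the loading factor H2-M were split, with H2-DMa lower (-0.50), H2-DMb1 lower and H2-DMb2 higher. Per kb of exon, H2-DMb2 had 156 ± 1.08 normalised counts in Aβ+LPS and 59.0 ± 10.8 in Ctrl, and H2-DMb1 had 1945 ± 50.5 and 2125 ± 39.9. The endosomal proteases that cut antigen and invariant chain fell, with log2(fc) of -1.19 for Lgmn, -1.04 for Ctsd, -0.99 for Ctsb and -0.22 for Ctss, except Ctsl, which did not pass (-0.01, adjp = 0.78).

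MHC class I genes rose more broadly, 18 of 24 with 5 lower (median 0.79). H2-K1 had 68572 ± 837 normalised counts in Aβ+LPS and 22958 ± 265 in Ctrl (log2(fc) 1.58, adjp = 9.7e-19), and B2m, the light chain, had 195981 ± 9802 in Aβ+LPS and 98187 ± 2574 in Ctrl (log2(fc) 1.00, adjp = 1.9e-13). The non-classical H2-Q7 (5.77), H2-Q6 (5.65) and H2-Q4 (2.80) rose most, and since these genes are near-identical copies their counts may share reads. Those that fell included the chaperones Calr (-0.34), Canx (-0.40) and Pdia3 (-0.42), the trimming enzyme Erap1 (-0.35) and the immunoproteasome subunit Psmb10 (-0.56).

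Co-stimulatory ligand genes were higher for 10 of 14 and lower for 4 (median 1.36). Cd40 (chr2:165055627-165072948), through which T cells license dendritic cells, had 2552, 2544 and 2728 normalised counts in Aβ+LPS and 34.5, 28.6 and 43 in Ctrl (log2(fc) 6.18, SE 0.11, adjp = 8e-22). Cd80 and Cd86, the ligands of CD28 and CTLA-4, rose less: Cd80 had 2214, 2315 and 2387 in Aβ+LPS and 712, 764 and 716 in Ctrl (log2(fc) 1.66, SE 0.05, adjp = 4.5e-17), and Cd86 had 1872, 1885 and 1913 in Aβ+LPS and 701, 671 and 789 in Ctrl (log2(fc) 1.39, SE 0.07, adjp = 4.8e-14). In each of the 3 genes the groups were fully separate. Cd70, the CD27 ligand, had no read in Ctrl and 37.8 ± 6.12 in Aβ+LPS, at least 35.8-fold higher. Slamf1 (4.78), Tnfsf15 (2.55), Tnfsf9 (2.15), Icam1 (1.33) and Tnfsf4 (0.97) rose, while Tnfsf8 (-1.65), Tnfsf14 (-1.52), Cd48 (-0.46) and Tnfsf18 (-0.78) fell. The call for Tnfsf18 was lost without Aβ+LPS library 3 (adjp = 0.055). That for Icosl, which rose by 0.35, was lost without Aβ+LPS library 1 (adjp = 0.083) or 3 (adjp = 0.13) or Ctrl library 2 (adjp = 0.29). Genes of the co-inhibitory and tolerogenic list rose in a like share, 18 of 24 with 6 lower (median 2.04). Cd274, the PD-1 ligand PD-L1, had 22728, 23167 and 23312 in Aβ+LPS and 6106, 5879 and 6088 in Ctrl (log2(fc) 1.94, SE 0.04, adjp = 3.1e-21). Thbs1 (4.20), the cytokine signalling inhibitor Socs3 (4.32) and the amino acid oxidase Il4i1 (3.38) also rose, and the galectin genes Lgals1 (-1.90), Lgals9 (-0.61) and Lgals3 (-0.54) and the checkpoint gene Vsir (-0.70) fell.

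The maturation and migration list had 22 of 23 genes higher and 1 lower (median 2.42). Beside Ccr7 and Ccl22, Tnfrsf9, the 4-1BB receptor, had 4643 ± 159 normalised counts in Aβ+LPS and 37.2 ± 6.39 in Ctrl (log2(fc) 6.94). Fscn1, the actin bundler of dendrites, had 2313, 2148 and 2332 in Aβ+LPS and 53.7, 48 and 51.1 in Ctrl (log2(fc) 5.45, SE 0.09, adjp = 1.9e-22). The gene that fell was the actin-binding Marcks (-0.52), and Lamp3 did not pass the filter.

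Markers that define conventional dendritic cells moved both ways, 11 of 21 higher and 9 lower (median 0.43). The lineage factor Zbtb46 had 384, 419 and 370.4 normalised counts in Aβ+LPS and 100.3, 108 and 110.5 in Ctrl (log2(fc) 1.87, SE 0.10, adjp = 3.2e-13). Flt3, Kit and Irf4 rose with it, as did the XCR1+ subset lectin Clec9a (857 ± 91 in Aβ+LPS, 322 ± 32.6 in Ctrl, log2(fc) 1.41) and Dpp4 (0.77), a call for Dpp4 lost without Aβ+LPS library 3 (adjp = 0.063). Xcr1 itself did not pass the filter, and Batf3, the factor of that subset, fell (-0.80). Lectins of the CD11b+ subset fell, Mgl2 to 74.2 ± 20.8 in Aβ+LPS, against 1093 ± 98.6 in Ctrl (-3.90), and Clec10a by -3.65. Itgax, which encodes CD11c, was high in both groups, with 24918 ± 698 in Aβ+LPS and 31191 ± 253 in Ctrl (log2(fc) -0.32, adjp = 1.9e-07). Summed over the list, dendritic cell markers took 3266 to 3349 CPM (reads scaled to the total of the library) in Aβ+LPS libraries and 3390.0 to 3506 CPM in Ctrl libraries. Defining dendritic cell markers were thus present in both groups, but Flt3 and Kit were low in Ctrl and Cd209a had no read in Aβ+LPS. The sums of dendritic cell markers lay below those of macrophage markers in both groups, but the lysozyme gene Lyz2 alone made up most of the latter. Sums over different genes do not measure shares of cells.

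Macrophage identity genes were lower for 18 of 22 and higher for 3 (median -1.41), and their sum was 15530.0 to 15960.0 CPM in Aβ+LPS and 45700.0 to 46470.0 in Ctrl. Lyz2, the lysozyme gene of the myeloid lineage and the gene with the most reads in Ctrl, had 220173, 222521 and 233684 normalised counts in Aβ+LPS and 1079020.0, 1099700.0 and 1100110.0 in Ctrl (log2(fc) -2.28, SE 0.06, adjp = 1.1e-18). It took 0.867% of reads in genes in Aβ+LPS and 3.96% in Ctrl. Lyz2 alone thus made up most of the macrophage sum in both groups and carried the difference of that sum between them. It may share reads with its close copy Lyz1 (-2.49). The apoptotic cell receptor Mertk (log2(fc) -1.69, adjp = 3.1e-18) and the Fc receptor Fcgr1 (log2(fc) -1.75, adjp = 6.3e-14) fell with Mrc1, C1qb and C1qc. The exceptions that rose were Cd14, Marco (1.34) and Adgre1, which encodes F4/80 (34249.6 ± 1190.2 in Aβ+LPS, 21722 ± 195 in Ctrl, log2(fc) 0.66). Csf1r, the macrophage growth factor receptor, was lower by a small margin (-0.27).

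**Figure D3:**
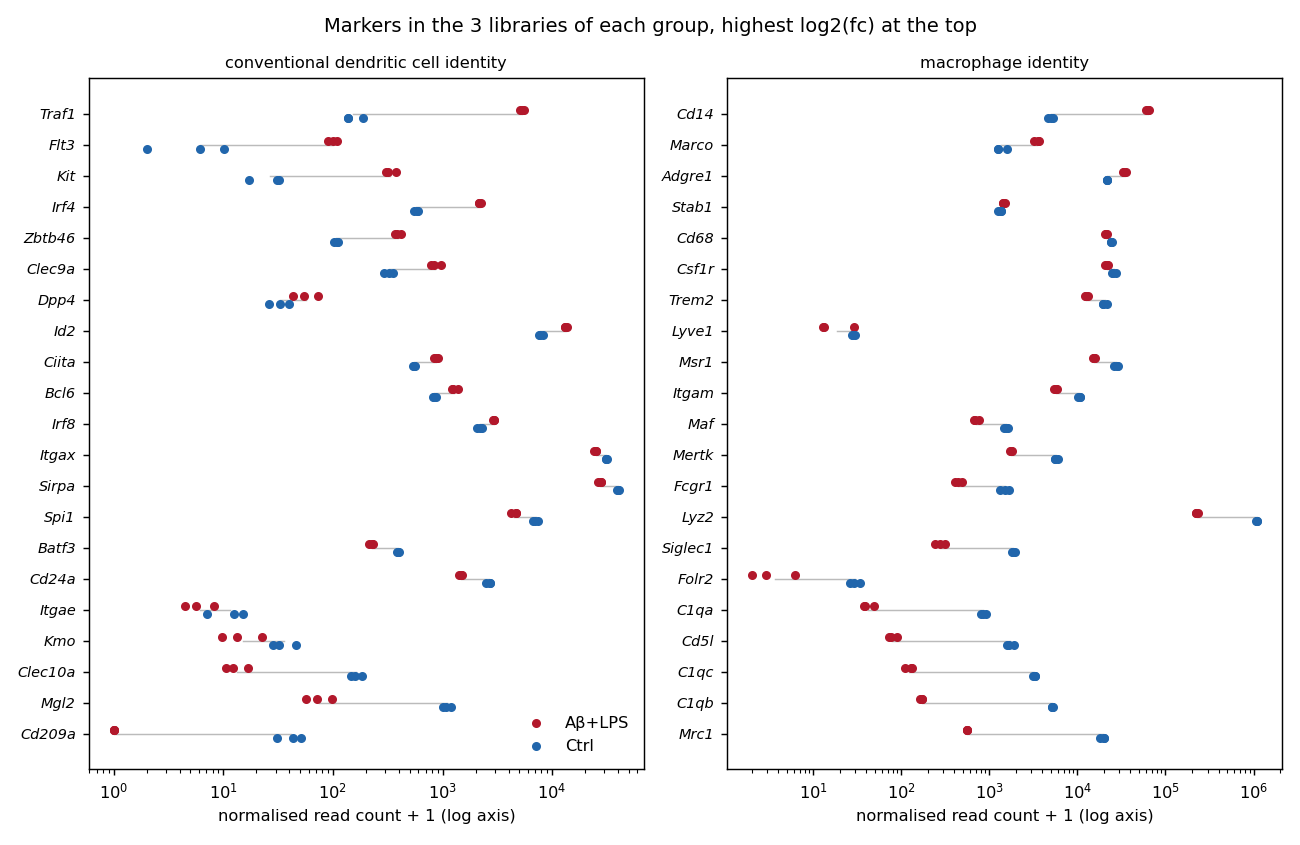
Markers of conventional dendritic cells (left) and macrophages (right), one gene per row, as normalised count + 1 on a log axis. Each point is a library, Aβ+LPS in red above Ctrl in blue. Dendritic cell markers lie on both sides, from Traf1 (log2(fc) 5.14) to Cd209a, while most macrophage markers shown lie lower in Aβ+LPS.

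Markers of other cell types moved too. Neutrophil markers summed to 2534 to 2604 CPM in Aβ+LPS and 643 to 688 in Ctrl, a sum carried by Mmp8 (64966 ± 2064 normalised counts in Aβ+LPS, 17174 ± 520.1 in Ctrl), while the defining Mpo, Elane and Ly6g were below the filter and 3 of 9 tested rose and 4 fell. Mast cell and basophil markers summed to 52.3 to 56.1 in Aβ+LPS and 8.82 to 9.45 in Ctrl, with Hdc, the histamine-forming enzyme, at 669.9 ± 30.8 normalised counts in Aβ+LPS and 6.65 ± 2.16 in Ctrl (log2(fc) 6.49), but Mcpt4, Tpsb2, Tpsab1 and Fcer1a had no read in these libraries. B cell markers summed to 148 to 149.9 in Aβ+LPS and 126 to 128 in Ctrl, with Cd79a at 42.2 ± 9.44 in Aβ+LPS and 6.37 ± 3.11 in Ctrl. Immunoglobulin genes took 104 to 267 CPM in Aβ+LPS and 23.5 to 42.5 in Ctrl. Fibroblast markers summed to 53.1 to 61 in Aβ+LPS and 11 to 14.8 in Ctrl, and of 7 tested 4 rose, Dcn most, while Postn fell and Col1a1, Col1a2 and Col3a1 were below the filter. Plasmacytoid dendritic cell markers came to 300.5 to 311 in Aβ+LPS and 174 to 201 in Ctrl, with 4 of 7 tested higher and 2 lower. Eosinophil markers came to 12.3 to 13.8 in Aβ+LPS and 52.9 to 56.1 in Ctrl. T and NK cell markers came to 9.23 to 10.3 in Aβ+LPS and 2.68 to 3.50 in Ctrl. Of 4 tested T and NK markers only 1 rose, Lck, and 2 fell (median -0.87), while Cd8b1, Ncr1, Gzma and Prf1 had no read in these libraries. Osteoclast markers, several of which macrophages share, came to 2184 to 2215 in Aβ+LPS and 2287 to 2362 in Ctrl. The sums of neutrophil and osteoclast markers in Aβ+LPS were of the order of that of dendritic cell markers. The part that cell composition had in any result above was not tested.

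Genes that mark plaque-associated microglia in Alzheimer models fell for the most part, 17 of 22 with 5 higher (median -0.65). Apoe led the fall, followed by the growth factor Igf1 (2124 ± 126 normalised counts in Aβ+LPS, 17128 ± 475 in Ctrl, log2(fc) -3.01), the lipid chaperone Fabp5 (-2.06) and osteopontin, Spp1. Spp1 had 94832, 85819.9 and 94556 in Aβ+LPS and 326984, 331323 and 321202 in Ctrl (log2(fc) -1.83, SE 0.06, adjp = 1.5e-17). Lpl (-0.59), Cd9 (-1.18), Clec7a (-0.36) and Itgax fell by less. Cst7, a cystatin that inhibits lysosomal proteases, rose (2258 ± 154 in Aβ+LPS, 199.6 ± 27 in Ctrl, log2(fc) 3.50), and so did B2m, Ch25h (0.63), Gpnmb (0.37) and Csf1.

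Receptors that bind or take up amyloid went both ways, 9 of 24 higher, 11 lower and 4 not past the test (median -0.12). Olr1, the receptor LOX-1 for oxidised LDL, had 21087, 20880.2 and 21580.5 normalised counts in Aβ+LPS and 1709.7, 1575 and 1649.5 in Ctrl (log2(fc) 3.69, SE 0.05, adjp = 1.3e-23), and Marco and Tlr2 were higher too. Cd36, a scavenger receptor for oxidised lipid and fibrillar Aβ, fell, with 70395, 68088 and 71409.6 in Aβ+LPS and 148965, 143172 and 150640.0 in Ctrl (log2(fc) -1.08, SE 0.05, adjp = 1.3e-14). Scarb1 (-1.11) and Stab2 (-5.13) fell too. Of 6 Fc receptor genes, the inhibitory Fcgr2b rose (13118 ± 39.2 in Aβ+LPS, 2027 ± 61.4 in Ctrl, log2(fc) 2.69) and the activating Fcgr1 (-1.75) and Fcgr4 (-3.05) fell. Activating Fcgr3 had 32096 ± 1131 in Aβ+LPS and 31178 ± 1127 in Ctrl (adjp = 0.41).

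Complement genes went both ways, 6 of 17 higher and 10 lower (median -0.72). C1q chains, which start the classical pathway and tag synapses for removal, fell: C1qb (chr4:136880129-136886187) had 173, 164 and 169 normalised counts in Aβ+LPS and 5151, 5149 and 5297 in Ctrl (log2(fc) -4.94, SE 0.08, adjp = 1.2e-22). The serine protease genes of the same C1 complex rose, C1s1 to 344 ± 20.6 in Aβ+LPS, against 4.50 ± 2.47 in Ctrl (6.07), and C1ra by 1.39. C1s1 has a near-identical neighbour, C1s2, so the share of each is uncertain. C3, the central component, had 22199, 20934 and 23184 in Aβ+LPS and 2801, 2947 and 2851 in Ctrl (log2(fc) 2.95, SE 0.05, adjp = 1.6e-22). Its alternative pathway partner Cfb rose (4.10), while the properdin gene Cfp fell (-1.26).

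Lysosomal genes fell in 28 of 36 cases (median -0.49). Lipa, the acid lipase, had 21924 ± 1098 normalised counts in Aβ+LPS and 74254 ± 501 in Ctrl (log2(fc) -1.76, adjp = 6.4e-19), and Gusb (-1.50), Man2b1 (-1.35), Lamp1 (-1.14) and Psap (-0.87) fell too. Those that rose included Ctsz (0.62), Npc2 (0.50) and Ctsk (0.39). Autophagy genes showed no common direction, 9 higher, 9 lower and 11 of 29 not past the test, with the cargo receptor Sqstm1 as the highest of those named (1.44).

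Lipid genes were mostly lower. Fatty acid and PPARγ genes fell in 16 of 21 cases (median -0.59). Fabp4 had 437, 498 and 479 normalised counts in Aβ+LPS and 8103, 8035 and 8592 in Ctrl (log2(fc) -4.13, SE 0.06, adjp = 3.5e-23), and Pparg, the receptor that controls it, 109, 109 and 98 in Aβ+LPS and 1144, 1176 and 1112 in Ctrl (log2(fc) -3.43, SE 0.08, adjp = 2.6e-19). Both genes had all Aβ+LPS libraries far below all Ctrl libraries. Acsl1, an acyl-CoA synthetase, rose (8168 ± 511 in Aβ+LPS, 1525 ± 63.5 in Ctrl, log2(fc) 2.42). Of the LXR and efflux genes, Nr1h3, which encodes LXRα, fell (-1.92) with Pltp (-2.91) and Abcg1 (-0.89), whereas Abca1, the exporter that loads cholesterol on apolipoproteins, rose, with 15324, 15376 and 17163 in Aβ+LPS and 3207, 3134 and 3141 in Ctrl (log2(fc) 2.33, SE 0.05, adjp = 1.1e-19). Cholesterol synthesis genes were lower for 16 of 24 and higher for 4 (median -0.48). Dhcr7 (-1.35), which acts at the end of the pathway, was among those that fell.

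Glycolysis and hypoxia genes rose in 25 of 30 cases (median 0.89), while those of the tricarboxylic acid cycle fell in 19 of 22 (median -0.32) and those of oxidative phosphorylation in 27 of 43 (median -0.21). The glucose transporter gene Slc2a1 had 9109, 8808 and 9213 normalised counts in Aβ+LPS and 2658, 2767 and 2629 in Ctrl (log2(fc) 1.75, SE 0.04, adjp = 4.6e-20). The lactate exporter gene Slc16a3 (1.98) and Vegfa (2.46) rose too. Idh2 (-1.90), Idh1 (-1.13) and Fh1 (-1.07) fell, and Mdh2 was the 1 gene of the cycle that rose (0.19). Acly did not pass, but did without Aβ+LPS library 2 (adjp = 0.019), with TMM scaling (adjp = 0.031) and in edgeR (adjp = 0.038), as higher. Acod1, which diverts the cycle to itaconate, had 27039, 26376 and 27701 in Aβ+LPS and 751, 723 and 826 in Ctrl (log2(fc) 5.14, SE 0.05, adjp = 5.8e-27). Nos2, Acod1 and the arginine transporter gene Slc7a2 (37197 ± 871 in Aβ+LPS, 2767 ± 174 in Ctrl, log2(fc) 3.75) rose with Gch1 (1.32), which makes the cofactor of nitric oxide synthase. Cybb, the catalytic subunit of the phagocyte NADPH oxidase, fell (-0.46). Of 10 mitochondrially encoded mRNAs 3 rose and the rest did not pass. The call for mt-Co1 was lost without Aβ+LPS library 3 (adjp = 0.053) or Ctrl library 2 (adjp = 0.073) or 3 (adjp = 0.064), and mt-Nd5 passed as lower with the 6 libraries of the 2 groups alone (adjp = 0.006).

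Of the prostanoid enzymes, Ptgs2 (chr1:150100031-150108227), the inducible cyclooxygenase, had 26525, 29033 and 29579 normalised counts in Aβ+LPS and 99.3, 90.3 and 100.2 in Ctrl (log2(fc) 8.18, SE 0.06, adjp = 1.3e-28). Ptges, the next enzyme towards prostaglandin E, rose (4.10), and enzymes of other branches fell, Hpgds for prostaglandin D to 284 ± 15 in Aβ+LPS, against 3196 ± 59.6 in Ctrl (-3.49), Tbxas1 for thromboxane by -1.55 and Alox5 for leukotrienes by -1.21. Over the list 8 of 19 rose and 9 fell (median 0.06). Vasoactive peptide genes rose in 9 of 15 cases (median 1.96). Edn1, the vasoconstrictor endothelin, had 1014, 906 and 1001 in Aβ+LPS and 102, 92.6 and 107 in Ctrl (log2(fc) 3.26, SE 0.09, adjp = 8e-19), and Ramp3, a partner of the adrenomedullin receptor, a log2(fc) of 5.94. Nppb, the B-type natriuretic peptide, fell to 0.913 ± 0.865 in Aβ+LPS, against 44.6 ± 9.70 in Ctrl (-4.67), while its relative Nppc rose.

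Cell cycle genes fell. All 38 tested genes of DNA replication and nucleotide synthesis fell (median -2.35), as did 38 of 40 genes of mitosis (median -3.21), against 34.8% lower among all genes. Mcm5, a subunit of the replicative helicase, had 225, 223 and 252 normalised counts in Aβ+LPS and 2103, 2187 and 2095 in Ctrl (log2(fc) -3.19, SE 0.07, adjp = 1.6e-20). Rrm2, the subunit of ribonucleotide reductase that sets the supply of deoxynucleotides, had 260.2, 239 and 261 in Aβ+LPS and 3005, 2974 and 2949 in Ctrl (log2(fc) -3.55, SE 0.06, adjp = 3.2e-22). Top2a, which untangles chromosomes, had 524, 523 and 491 in Aβ+LPS and 4409.6, 4146 and 4387 in Ctrl (log2(fc) -3.07, SE 0.06, adjp = 1.7e-21). In all 3 genes the Aβ+LPS libraries lay far below the Ctrl libraries, with no overlap. The exceptions of the mitosis list were securin, Pttg1, which rose (log2(fc) 0.46, adjp = 3.4e-05), and Incenp, which did not pass (-0.10, adjp = 0.061) but did without Ctrl library 3 (adjp = 0.039) or with libraries centred on the median (adjp = 0.0499). The CHR motif, TTTGAA, known from promoters of late cell cycle genes, was found by the same search before 11 of 32 mitosis genes (34.4%), against 13.3% of tested genes and 16% of all promoters. These 6 letters also stood before 8 of 32 interferon-stimulated genes (25%) and 4 of 13 matched genes of the 15 lowest (30.8%). They stood before 1 of 25 NF-kB list genes (4%) and 0 of 12 matched genes of the 15 highest. The parts before the start with this motif in capitals are shown for 3 mitosis genes, picked after the values were seen. The motif is on the coding strand in Cdc20 and Espl1 and on the other strand in Kif11:
Cdc20 (chr4:118437344-118437416, minus strand): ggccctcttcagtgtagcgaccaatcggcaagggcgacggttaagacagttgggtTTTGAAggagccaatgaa
Espl1 (chr15:102296211-102296292, plus strand): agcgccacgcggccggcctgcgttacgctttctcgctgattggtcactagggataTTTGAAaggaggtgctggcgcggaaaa
Kif11 (chr19:37376308-37376381, plus strand): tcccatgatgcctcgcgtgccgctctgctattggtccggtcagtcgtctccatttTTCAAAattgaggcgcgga
Cdc20, the activator of the anaphase-promoting complex, had 29.8, 32.8 and 16.3 in Aβ+LPS and 415, 445 and 399 in Ctrl (log2(fc) -4.00, adjp = 2.8e-14). Espl1, the separase that cuts cohesin, had a log2(fc) of -2.35 and Kif11, the motor that parts the spindle poles, of -3.15.

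All 51 cytosolic ribosomal protein genes tested fell as well, with a median log2(fc) of -0.77, a far smaller step than in the cell cycle lists. Rpl3 had 5479 ± 208 normalised counts in Aβ+LPS and 13209 ± 408 in Ctrl (-1.27), and Rps2 had 8739 ± 78 in Aβ+LPS and 15314 ± 399.8 in Ctrl (-0.81). Ribosome biogenesis genes fell in 21 of 30 cases (median -0.30). Ribosomal protein genes have many processed pseudogenes that can take their reads. Of 335 processed pseudogenes of any gene tested, 114 fell and 35 rose, where all genes had 34.8% lower and 35.9% higher. The share that fell was thus near that of all genes, and the share that rose was smaller. The part of pseudogenes in the ribosomal protein counts was not tested. Targets of p53 were higher for 9 and lower for 14 of 23, with Ddit4 the highest (2.88) and Sesn1 the lowest (-2.46) of those named.

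**Figure D4:**
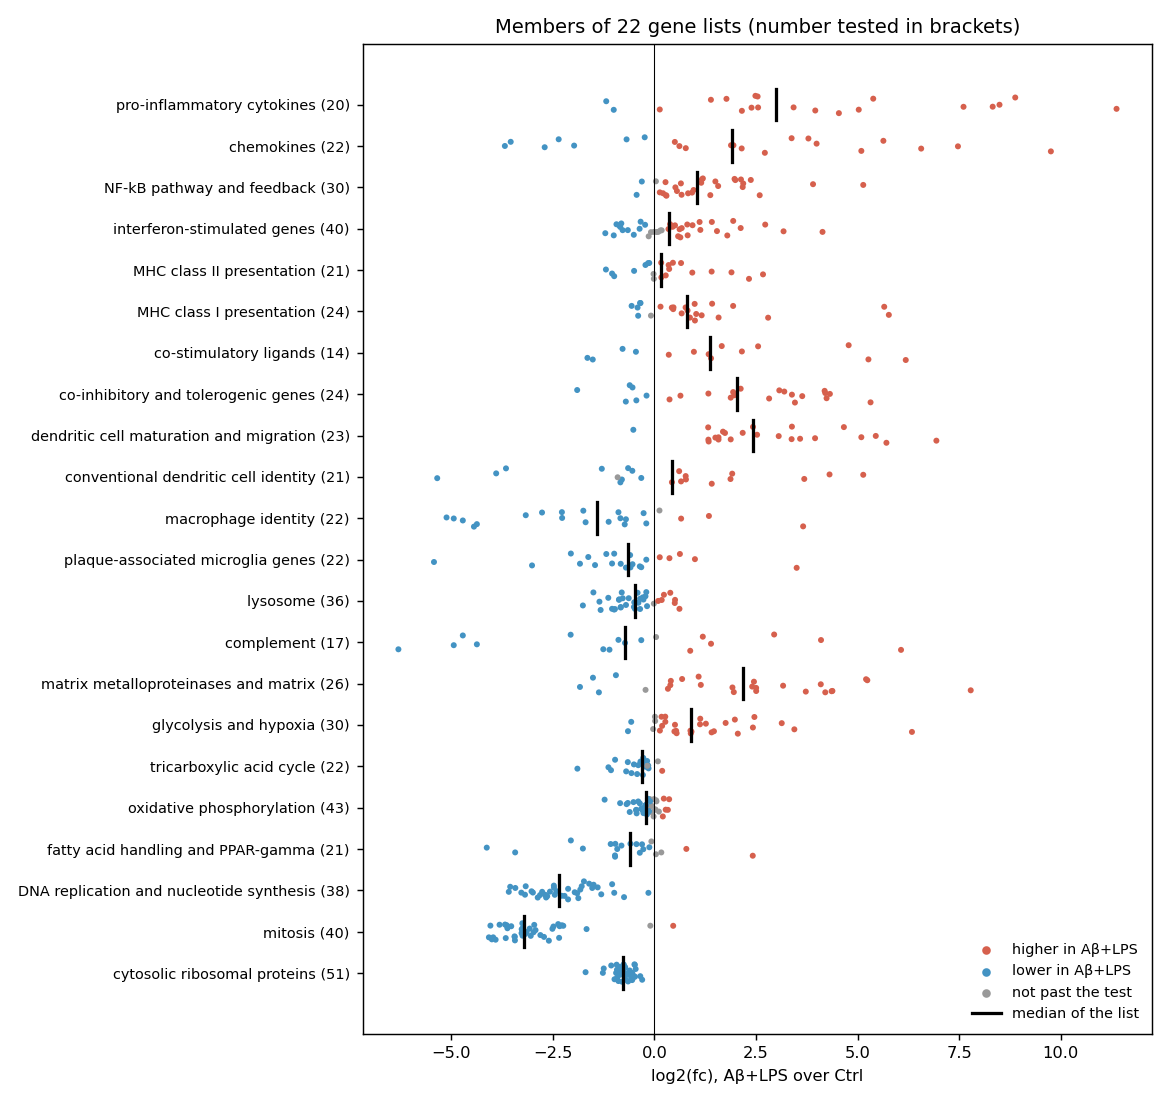
log2(fc) of Aβ+LPS vs. Ctrl (horizontal axis) for the tested members of 22 gene lists, one list per row and one point per gene. Red points passed the test as higher, blue points as lower and grey points did not pass, and the black bar is the list median. Medians run from -3.21 for mitosis to 2.99 for pro-inflammatory cytokines.

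Acute-phase and antimicrobial genes rose in 12 of 21 cases and fell in 7 (median 0.83). Saa3, a serum amyloid protein of macrophages, had 26185, 29369 and 31869 normalised counts in Aβ+LPS and 87.2, 84.6 and 105 in Ctrl (log2(fc) 8.29, SE 0.08, adjp = 5.8e-27), and Hamp, the iron hormone hepcidin, 665, 673 and 787 in Aβ+LPS and 0, 0 and 6.14 in Ctrl (log2(fc) 8.52, SE 0.45, adjp = 2e-13). Haptoglobin, Hp (4.11), ceruloplasmin, Cp (5.89), and the chitinase-like Chil1 (4.77) rose, whereas Chil3 (-2.09) and Lyz2 fell. Of iron genes, heme oxygenase, Hmox1, rose (57940.3 ± 3230.2 in Aβ+LPS, 14561 ± 243 in Ctrl, log2(fc) 1.99) and the iron exporter gene Slc40a1 fell (-1.24). The ferritin chains parted, the heavy chain Fth1 rising by 0.46 and the light chain Ftl1 falling (-0.55), and both were among the genes with the most reads. NRF2 targets rose in 13 of 21 cases (median 0.46), led by the cystine importer Slc7a11 (2.70), Nqo1 (2.45) and Gclc (2.18).

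Matrix and protease genes rose in 21 of 26 cases (median 2.18). Serpinb2, the plasminogen activator inhibitor PAI-2, had 59427, 60966 and 64505 normalised counts in Aβ+LPS and 284, 232 and 328 in Ctrl (log2(fc) 7.78, SE 0.08, adjp = 2.5e-26). Mmp9, a gelatinase, had 7114, 6365 and 6793 in Aβ+LPS and 326, 287 and 361 in Ctrl (log2(fc) 4.38, SE 0.06, adjp = 2.9e-23), and Mmp25 (5.24), Mmp8 (1.92) and Mmp12 (0.40) rose. Plau, the plasminogen activator that PAI-2 inhibits, fell (-0.95), with Timp2 (-1.37). Among adhesion genes Itgb8, an integrin that activates TGF-β, had 522 ± 17.9 in Aβ+LPS and 14 ± 3.05 in Ctrl (5.14), Vcam1 rose (3.08) and the gut-homing Itgb7 fell (-2.03).

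Of the genes that the study names for its other comparisons and that are not given above, Fn1 (log2(fc) 1.09, adjp = 2.2e-09), Bdkrb2 (log2(fc) 1.96, adjp = 0.00014) and Cd226 (log2(fc) 1.20, adjp = 0.0038) were higher in Aβ+LPS than in Ctrl. Card14 was lower (log2(fc) -0.59, adjp = 0.0077), a call lost without Ctrl library 1 (adjp = 0.068). Ednrb had 46.6 ± 8.93 normalised counts in Aβ+LPS and 74.9 ± 16 in Ctrl and did not pass (log2(fc) -0.67, adjp = 0.059), but did in edgeR (adjp = 0.021) and DESeq2 (adjp = 0.0189), with a pseudocount of 5 (adjp = 0.0368) and with the 6 libraries alone (adjp = 0.0102). Tmc3 had a log2(fc) of 0.81 and did not pass (adjp = 0.063), but did without Ctrl library 3 (adjp = 0.013), with a pseudocount of 5 (adjp = 0.0375) and with the 6 libraries alone (adjp = 0.0432). Ltk and Fyb2 did not pass the filter.

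Changed genes also followed one another on chromosomes, in runs of at least 4 genes with a log2(fc) beyond 1 in the same direction. Only tested protein-coding genes were lined up, so other genes may lie between them. Some of these runs are given, and how many would arise by position alone was not tested. On chromosome 17, H2-Q1, H2-Q4, H2-Q6, H2-Q7 and H2-Q10 (35320405 to 35474563) rose, with log2(fc) from 1.22 to 5.77. On chromosome 3, Gbp5, Gbp7, Gbp3, Gbp2b and Gbp2 (142493978 to 142638008) rose by 1.33 to 4.14. On chromosome 6, C1rl, C1ra, C1s1 and C1s2 (124493113 to 124636085) rose by 1.39 to 6.07. These 3 runs each consist of related genes, whose copies may share reads. On chromosome 11, Myo1d, Tmem98, Ccl2, Ccl7 and Ccl12 (80482126 to 82103400) were lower, from -3.68 to -1.39, and on chromosome X, Bex1, Tceal7, Tceal9 and Bex3 (136213972 to 136271978) were lower, from -6.02 to -1.75. Coordinates are those of GRCm38.

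The same Aβ+LPS libraries were set against the Aβ and the LPS libraries to place these levels between the single treatments. These comparisons share the Aβ+LPS libraries with the one against Ctrl, so values are given side by side. Against LPS alone 7964 genes (56.6%) differed, 3976 higher (28.3%) and 3988 lower (28.3%), of which 1032 (7.33%) and 996 (7.08%) had a log2(fc) beyond 1. Against Aβ alone 20 genes (0.142%) differed, 4 higher (0.0284%) and 16 lower (0.114%), and 1 (0.00711%) had a log2(fc) above 1. At an unadjusted p under 0.05 the count against Aβ was 899. Il6 averaged 12705 normalised counts in Aβ+LPS, 10812 in Aβ, 224 in LPS and 3.86 in Ctrl. Nos2 averaged 9341 in Aβ+LPS, 7380.5 in Aβ, 435 in LPS and 13.9 in Ctrl. For both genes LPS lay between Ctrl and the groups with oligomers. Mrc1 averaged 561 in Aβ+LPS, 762 in Aβ, 7037 in LPS and 19517 in Ctrl, the same order turned round. Ciita averaged 869.7 in Aβ+LPS, 755 in Aβ, 413 in LPS and 552 in Ctrl, so LPS alone was lowest.

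Counted by list, Aβ+LPS and LPS differed in the direction seen against Ctrl for some groups and not for others. Of 38 replication genes 38 were lower in Aβ+LPS than in LPS (median -2.09), of 20 pro-inflammatory cytokine genes 18 were higher (median 1.89) and of 30 glycolysis genes 24 were higher (median 0.61), where all genes had 28.3% higher and 28.3% lower. Cholesterol synthesis genes, mostly lower than in Ctrl, were higher than in LPS for 13 of 24 and lower for 4 (median 0.32). Sqle, an early enzyme of sterol ring formation, averaged 1722 in Aβ+LPS, 1674 in Aβ, 1108 in LPS and 1617 in Ctrl. MHC class II genes were higher than in LPS for 13 of 21 and lower for 6 (median 0.32).

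The 20 genes that differed between Aβ+LPS and Aβ had small changes, apart from an antibody segment. Oas3 had 978, 985 and 1061 normalised counts in Aβ+LPS, 1642, 1847 and 1558 in Aβ and 2140.4, 1655 and 2019 in Ctrl (log2(fc) -0.74, SE 0.09, adjp = 0.00045 against Aβ). Oas2 (-0.63), Irf7 (-0.73), Rtp4 (-0.79), Ly6a (-0.64) and Ly6e (-0.29), all induced by interferon, were lower than in Aβ too. Against Ctrl these differed in sign: Irf7 (1.54) and Ly6a (0.50) rose, Oas2, Oas3 and Rtp4 fell, and Ly6e did not pass (-0.03). A few cell cycle genes were lower than in Aβ, 2 of 38 of the replication list and 1 of 40 of the mitosis list. Rrm2 had 336, 372 and 333 in Aβ, above all Aβ+LPS values given before (log2(fc) -0.45, SE 0.06, adjp = 0.00095), and Mcm7, Rad51ap1, Nuf2 and Ccnd1 had log2(fc) from -0.71 to -0.37. Mrc1 (-0.43), Ccl6 (-0.32), Spp1 (-0.30), Mamdc2 (-0.25) and Cd93 (-0.27) were the others that were lower. Those higher were Ccl22 (0.22), Lsp1 (0.22) and Apoe, which had 83.4, 75.3 and 71.8 in Aβ (log2(fc) 0.48, SE 0.08, adjp = 0.016), and Ighv1-4, a variable segment of the antibody heavy chain, which had 17.7, 59.5 and 162 in the Aβ+LPS libraries and no read in any other library. Immunoglobulin segments are near-identical copies that share reads, and its 3 values were far apart. Spp1, Cd93, Ccl6, Ly6e, Mamdc2, Rad51ap1, Ccnd1 and Nuf2 were named after their values were seen.

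**Figure D5:**
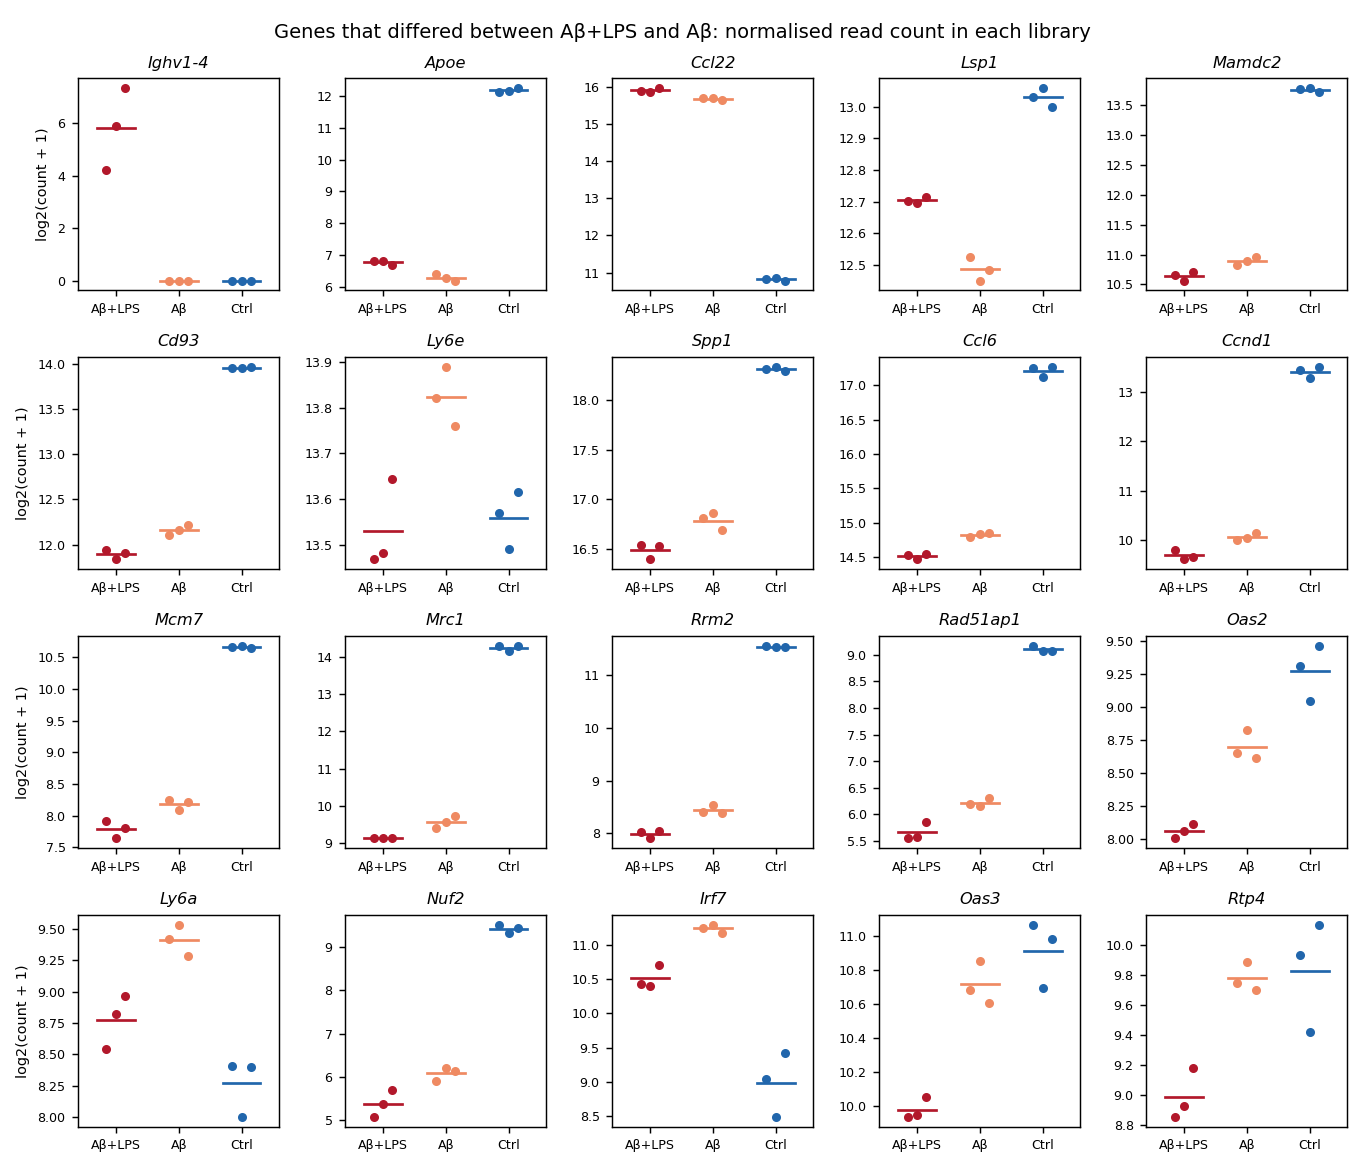
log2(normalised count + 1) per library of the 20 genes that differed between Aβ+LPS and Aβ, in Aβ+LPS, Aβ and Ctrl from left to right, each panel with its own axis range. Each point is a library. Mrc1 and Rrm2 sit far lower in Aβ+LPS and Aβ than in Ctrl, with a small step between Aβ+LPS and Aβ.

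This count was small and moved with the libraries and the tool used. edgeR called 30 genes, of which 17 were among the 20 of limma, and DESeq2 called 47, of which 16 were. Without Aβ+LPS library 1, 2 or 3 limma called 11, 7 or 16 genes, of which 8, 5 or 16 were among the 20. Without Aβ library 1, 2 or 3 it called 12, 7 or 8, all among the 20.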

How the data were processed

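The authors prepared stranded mRNA libraries, sequenced single reads of 100 bp and, per the labels and methods, checked them with FastQC 0.11.5, mapped them with HISAT2 2.1.0 to GRCm38 and counted them in genes with featureCounts 1.6.0. The strand setting of the counting is not given in the sources used here. As deposited, the expression signal of a gene is its read count scaled by the authors with the size factor of the library from DESeq2 (R 3.4.4). The deposited columns of the authors' own comparisons (fold changes and p-values) were not used. Steps between values gave back whole reads (100% of values within 0.05 of a whole read in each library), and thereby depth.

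Genes averaging 10 or more in Aβ+LPS or in Ctrl were tested, 14070 of 53465, also against LPS and Aβ. The main test was limma 3.58.1, trended on intensity, on log2(normalised count + 1) of all 12 libraries by group, with 8 residual degrees of freedom, two-sided, adjusted over all genes by Benjamini and Hochberg at a threshold of 0.05. A count test was not the main test because the deposited values are scaled. edgeR 4.0.16 (quasi-likelihood, TMM) and DESeq2 1.42.0 on recovered reads were alternatives, as were other pseudocounts, filters and scalings, a replicate block and leaving out each library. Coordinates came from GENCODE vM21 (99.8% of IDs matched). Symbols were those of the authors, filled in from GENCODE for 358 genes that had none. Promoters came from RefSeq (GRCm38.p6). Bounds on folds assume 3 reads over a group and cover counting error only. CPM sums of markers used recovered reads. The fit was also run on simulated data with few changed genes and the same dispersion for all genes. These data differ from that setting, so nothing is drawn from it here.

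The 57 gene lists and the genes were chosen with earlier results of these data known. Named are the 15 highest and 15 lowest genes, up to 4 members of each list per direction with the lowest adjusted p and those against its majority, all members of 9 lists, genes the paper names, genes without a read in a group, the genes with most reads, and up to 8 genes per direction against Aβ. Some of these genes are not reported here. Software was Python 3.11.15 with NumPy 2.4.6, Matplotlib 3.10.9 and pandas 2.3.3, and R 4.3.3.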

Additional observations from a re-analysis of the deposited data

How the results depend on the processing

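Set against Ctrl, the number of genes that rose (5051) ran from 4270 to 5375 and the number that fell (4900) from 4460 to 4989 under the alternatives tried, all within 1.5 times. With a filter of 50 on the mean in place of 10, the genes higher by a log2(fc) above 1 were 1193 in place of 1876, since fewer genes were tested. Against Aβ, genes higher were 10 with edgeR and 17 with DESeq2 in place of 4, genes lower were 30 with DESeq2 in place of 16, and the cause was not tested. Leaving out 1 library gave 1 to 3 genes higher and 6 to 14 lower than in Aβ (leaving out Aβ libraries was added after the data were seen). No gene named by the rule that had passed the main test changed direction under any alternative against Ctrl. The direction of those that had not passed was not compared. Of all genes named by the rule, 552 to 569 kept their side of the threshold in each alternative, or 527 of 527 with the filter of 50. Replicate numbers did not pair the libraries: same-numbered Aβ+LPS and Ctrl libraries had correlations of their deviations of -0.0199, 0.00454 and 0.0365. With the replicate number as a block, 5078 genes rose and 4913 fell against Ctrl, and against Aβ the counts were 5 and 19. Depth limits genes near the filter, where a level of 10 rests on few reads.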

Other observations

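Signalling genes outside the report moved too. In the SOCS and STAT list 12 of 22 genes rose and 4 fell (median 0.32). Stat4, which carries IL-12 signals, averaged 347 ± 41 normalised counts in Aβ+LPS and 22.4 ± 4.60 in Ctrl (log2(fc) 3.91, SE 0.14, adjp = 2.5e-16). The kinase gene Jak2 had 12673, 13035 and 13103 in Aβ+LPS and 1492, 1503 and 1546 in Ctrl (log2(fc) 3.09, SE 0.04, adjp = 1.2e-23), whereas Jak1 had 8994, 9014 and 9518 in Aβ+LPS and 9315, 9353 and 9589 in Ctrl and did not pass (adjp = 0.39). Of AP-1 and immediate early genes 18 of 29 rose and 8 fell, with Jun lower (1698 ± 41.5 in Aβ+LPS, 3452 ± 202 in Ctrl, log2(fc) -1.02, SE 0.05, adjp = 4.4e-14) and Maff higher (log2(fc) 2.14). Among BCL2 family and survival genes 12 of 30 rose (40%), 10 fell (33.3%) and 8 did not pass. These shares were near those of all genes (35.9% higher, 34.8% lower). Of this list, the caspase-8 inhibitor Cflar rose (1.79) and Bcl2l1, which encodes BCL-XL, fell (-0.96).

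Of 26 unfolded protein and integrated stress response genes 16 rose and 6 fell (median 0.37). The factors Atf4 (log2(fc) 1.02, adjp = 5.2e-16), Atf5 (1.87) and Ddit3, which encodes CHOP (2978, 3098 and 3266 in Aβ+LPS, 878, 934 and 951 in Ctrl, log2(fc) 1.76), rose, and the endoplasmic reticulum chaperones Hsp90b1 (-0.62) and Sdf2l1 (-1.03) fell, while Herpud1 (0.80) and Pdia4 (0.31) of the same organelle rose. Heat shock genes were 8 higher and 12 lower of 23, with Hspa1b higher (2.70) and the chaperonin subunits Cct2 (-0.38), Cct4 (-0.58) and Cct5 (-0.67) lower. Of 32 proteasome genes 17 fell and 6 rose (median -0.13).

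By gene class, 15 of 23 tested immunoglobulin variable segments and 6 of 7 constant genes were higher, against 35.9% of all genes. Segments without a read in Ctrl passed the filter only through Aβ+LPS, so their direction was set by that filter. Examples are Ighv4-1, with 0 to 139 normalised counts over the Aβ+LPS libraries, and Igkv10-94, with 0 to 131. Immunoglobulin genes share reads among copies. Of 370 lincRNA genes tested 154 rose and 85 fell (median log2(fc) 0.38), against 4528 higher and 4522 lower of 12363 protein-coding genes (median 0.01). The 10 genes with the most reads took 13.3 to 13.5% of reads in Aβ+LPS libraries and 16.1 to 16.5% in Ctrl libraries.

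Levels are relative within each library, scaled by the size factors of the authors, so a shift of total RNA per cell would not be seen.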
